A study of Rattus norvegicus with 35 samples.

Results

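The brominated flame retardant BTBPE, whose full name is 1,2-bis(2,4,6-tribromophenoxy)ethane, was given to rats at 68 mg/kg, and their liver transcripts were set against those of rats given its corn oil vehicle alone. The animals of both groups were male Harlan Sprague Dawley rats, 7 weeks old when dosing began, gavaged daily for 5 days at 5 ml/kg, with left lobe liver collected on the day after the last dose. Neither group carried a transgene or any other treatment that the labels record. There were 5 arrays at 68 mg/kg and 6 of vehicle, 11 of the 35 single-sample rat expression arrays of a series with 6 groups. The labels number the samples of a group as replications, and every array is taken here to stand for 1 rat. The arrays were chosen by label alone, and all 31042 probe sets left after removal of the array maker's controls, of 31099 deposited, were compared.

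The liver meets foreign compounds with a set of ligand-activated receptors. CAR and PXR induce some cytochromes P450 of the 2B and 3A families, and the aryl hydrocarbon receptor (AhR) induces those of the 1 family. PPAR-alpha induces fatty acid oxidation, and NRF2 induces antioxidant enzymes. Around the hepatocytes lie Kupffer cells, the resident macrophages of the sinusoids, which clear particles and respond to interferons, the signals that switch on antiviral genes.

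The tissue read as liver. All 18 measured hepatocyte markers had means above the lowest array median of 4.71 (log2 expression), between 9.33 and 14.39, while 2 of 17 exocrine pancreas markers, 1 of 12 kidney and adrenal markers and 2 of 9 neutrophil markers reached that level. Each gene was read from its brightest probe set, and genes below 4.71 in a group are called dim and given by level, since they were not shown to be above background. Array medians lay between 4.72 and 4.76 in vehicle livers and between 4.74 and 4.75 at 68 mg/kg. The median correlation of an array with the others of its group was 0.9944 to 0.9953 in vehicle livers and 0.9937 to 0.9946 at 68 mg/kg. Dosed replicates 2 and 5, and less so vehicle replicate 3, stood apart in macrophage and interferon genes, and values with and without them are given there.

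The first question was whether 68 mg/kg altered any transcript. limma's moderated test with Benjamini-Hochberg adjustment called 0 of 31042 probe sets (0.00%) at an adjusted p under 0.05, and its smallest adjusted p was 0.822. At an unadjusted p under 0.05 there were 1205 probe sets (3.88%), where 1552 would be met if nothing differed. Of these, 549 (1.77%) were higher and 656 (2.11%) lower at 68 mg/kg, and an unmoderated analysis of variance called 0 with 1209 at that level. Without dosed replicates 2 and 5, limma called 0 with 1180 at that level. The smallest p values fell on a probe set with no gene name (7.29 in the vehicle mean, 6.78 at 68 mg/kg) and on Prss2 and Galnt14, both dim.

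Differences between the group means were small. Over 14217 genes the median size of the difference was 1.04-fold, the median log2 difference was 0.0031, and 51.7% of genes were higher and 48.3% lower in the mean. A mean ratio past 1.5-fold was read for 18 genes, 10 higher and 8 lower, and one past 2-fold for 3 genes, Cdh17, Ubd and Ugt2b. For 14157 genes (99.6%) the 95% confidence interval excluded a 2-fold difference, and for 13884 (97.7%) it excluded 1.5-fold. The median interval reached 1.12-fold to either side. Intervals are those of single genes in the limma fit, not adjusted for the number of genes, and the number of arrays limits their width.

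**Figure D1:**
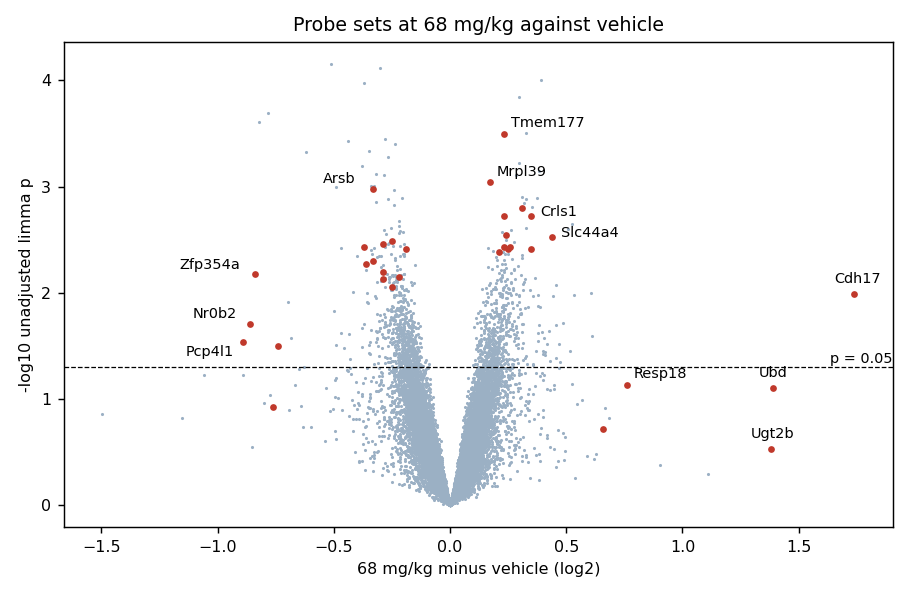
Each point is 1 of the 31042 probe sets, with the mean difference between 68 mg/kg and vehicle (log2) on the x axis and -log10 of the unadjusted limma p on the y axis. Red points are the named genes with the smallest p or the largest difference, the dashed line marks the unadjusted threshold of 0.05, and no probe set passed the adjusted threshold.

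Complete separation of the arrays was as rare in both directions. The 5 arrays at 68 mg/kg all lay above the 6 vehicle arrays for 51 probe sets (0.164%) and all below them for 52 (0.168%), together 103 (0.332%). Among 9590 genes that were not dim in either group, 26 separated upward and 11 downward. The 24 genes described next are those of this set with the smallest limma p, 12 in each direction. Their adjusted p was 0.999 in every case, so the values are descriptions of these 11 livers, and for none was the difference shown to exceed the spread between rats once all probe sets are considered.

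Among the 12 genes with higher means, Tmem177 had the smallest p. A mitochondrial protein that takes part in the assembly of cytochrome c oxidase, it read 5.88 to 6.12 (median 5.97) in vehicle livers and 6.23, 6.18, 6.17, 6.31 and 6.19 in replicates 1 to 5 at 68 mg/kg. All 5 dosed arrays lay above all 6 vehicle arrays, at 1.17-fold (95% interval 1.08 to 1.27). Mrpl39, a protein of the large subunit of the mitochondrial ribosome, read 7.71 to 7.89 (median 7.79) in vehicle livers and 8.00, 7.99, 7.95, 7.85 and 8.02 at 68 mg/kg. Its groups overlapped through replicate 4 alone, at 1.12-fold (1.05 to 1.2).

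Crls1 encodes cardiolipin synthase, which makes the signature phospholipid of the inner mitochondrial membrane. It read 8.368 to 8.747 (median 8.651) in vehicle livers and 8.893, 8.998, 8.992, 8.896 and 9.001 at 68 mg/kg. The dosed arrays lay above every vehicle array, at 1.27-fold (1.1 to 1.47). Mettl17, a factor of mitochondrial ribosome assembly, was 1.19-fold (1.06 to 1.33), with its other probe set opposite in sign.

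Slc44a4, a transporter of the choline transporter-like family, had the largest ratio of the 12. It read 4.29 to 4.97 (median 4.84) in vehicle livers and 5.11, 5.18, 5.32, 4.87 and 5.57 at 68 mg/kg. That was 1.36-fold (1.12 to 1.65), with replicate 4 within the vehicle range. S1pr1, the sphingosine 1-phosphate receptor of endothelium and lymphocytes, read 10.62 to 10.88 (median 10.64) in vehicle livers and 10.96, 11.02, 11.05, 10.77 and 10.82 at 68 mg/kg. Its 1.17-fold value (1.06 to 1.3) came from the brighter of 2 probe sets, the other being opposite in sign.

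Nxt2, a cofactor of mRNA export from the nucleus, also separated fully. Vehicle livers read 8.01 to 8.27 (median 8.18) and dosed livers 8.44, 8.36, 8.61, 8.31 and 8.37, at 1.2-fold (1.06 to 1.35). Zc4h2, a zinc finger protein, read 5.82 to 5.99 (median 5.85) against 6.16, 6.10, 6.05, 6.04 and 6.12, again with no overlap, at 1.16-fold (1.05 to 1.28), though its other probe set was opposite in sign. The remaining 4 overlapped with vehicle. They were Tmem216, a protein of the ciliary transition zone, at 1.17-fold (1.06 to 1.29), Prm3, a protamine gene, at 1.18-fold (1.06 to 1.32), Zbtb11os1 at 1.24-fold (1.09 to 1.41) and C2h4orf46 at 1.27-fold (1.09 to 1.49).

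Arsb had the smallest p of the 12 genes with lower means. A lysosomal sulfatase that degrades dermatan sulfate, it read 7.81 to 8.20 (median 7.89) in vehicle livers and 7.44, 7.74, 7.56, 7.96 and 7.39 at 68 mg/kg. All but replicate 4 lay below the vehicle arrays, at 0.795-fold (0.699 to 0.906). Tbxas1, the thromboxane synthase of macrophages and platelets, read 5.99 to 6.31 (median 6.16) against 5.84, 5.89, 5.86, 6.00 and 5.65, at 0.817-fold (0.717 to 0.931). Again replicate 4 alone reached into the vehicle range.

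Plau and Cnp were the 2 of these 12 genes whose groups did not overlap. Plau encodes urokinase, the protease that activates plasminogen. It read 6.21 to 6.47 (median 6.28) in vehicle livers and 6.13, 5.76, 6.08, 6.12 and 5.96 at 68 mg/kg, 0.815-fold (0.705 to 0.943). Cnp, the cyclic nucleotide phosphodiesterase best known from myelin, read 6.74 to 7.03 (median 6.83) against 6.51, 6.29, 6.72, 6.71 and 6.19, at 0.778-fold (0.655 to 0.924). Its lowest dosed arrays were replicates 2 and 5.

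Zbtb20, a repressor that silences fetal genes in adult hepatocytes, read 9.03 to 9.23 (median 9.14) in vehicle livers and 8.81, 8.97, 9.06, 8.97 and 8.87 at 68 mg/kg. Only replicate 3 lay within the vehicle range, at 0.874-fold (0.8 to 0.955), and its other 5 probe sets had the same sign. Zfp354a, a zinc finger protein, had the lowest ratio of the 12 and the widest scatter, at 7.14 to 8.56 (median 7.58) against 7.19, 6.48, 6.55, 7.67 and 6.80. That was 0.557-fold (0.369 to 0.841), with 3 dosed arrays below every vehicle array. Cox5a, a subunit of cytochrome c oxidase, read 7.46 to 7.84 (median 7.72) against 7.61, 7.61, 7.38, 7.25 and 7.46, at 0.859-fold (0.771 to 0.957).

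The other 5 genes of this group lay between 0.774-fold and 0.841-fold, each with overlapping groups. Atp8a1, a phospholipid flippase, was 0.774-fold (0.654 to 0.915). Klf12, a transcription factor whose other probe set was opposite in sign, was 0.797-fold (0.684 to 0.93). Slc25a33, a mitochondrial carrier of pyrimidine nucleotides, was 0.818-fold (0.71 to 0.941). The receptor tyrosine kinase Ephb4 was 0.839-fold (0.749 to 0.939) and Cdc42ep4, an effector of the small GTPase Cdc42, was 0.841-fold (0.741 to 0.955).

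**Figure D2:**
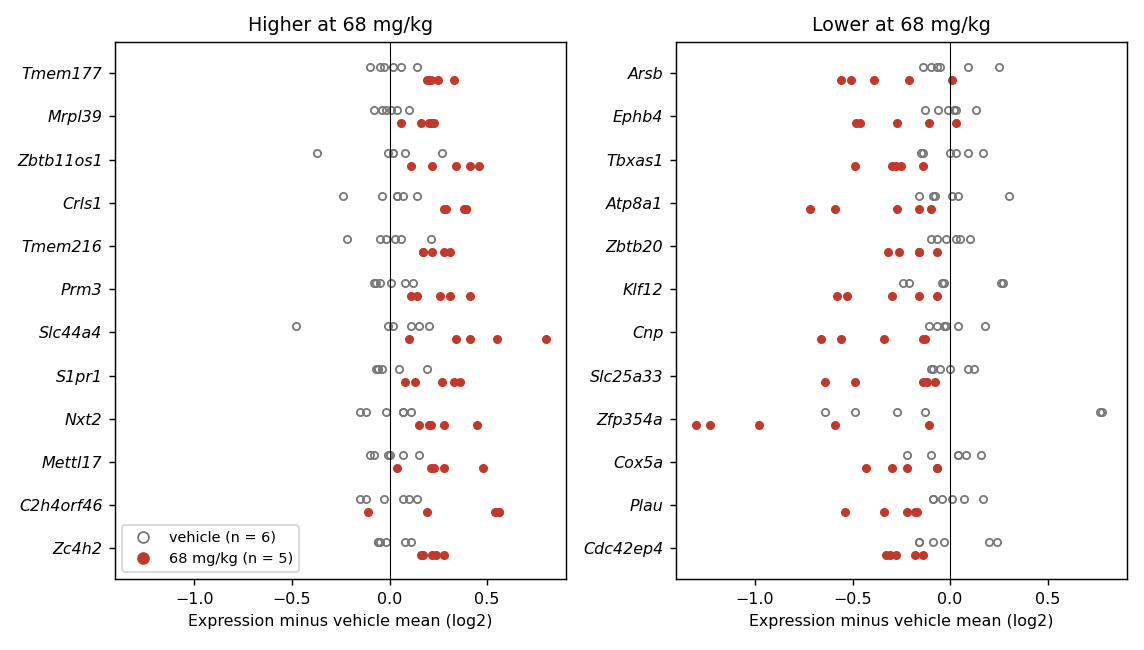
Each row is a gene and each point an array, plotted as log2 expression minus the gene's vehicle mean, with the 12 genes of smallest p and higher mean on the left and the 12 with lower mean on the right. Open points are the 6 vehicle arrays and filled points the 5 arrays at 68 mg/kg, which separate fully for Tmem177, Crls1, Nxt2, Zc4h2, Cnp and Plau.

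The largest mean differences came from genes that varied widely between rats of 1 group. Cdh17, the liver-intestine cadherin, spread over 5.36 to 8.74 (median 7.07) in vehicle livers and read 8.74, 8.81, 9.67, 8.83 and 7.69 at 68 mg/kg. Its ratio was 3.35-fold with an interval of 1.36 to 8.26, with replicate 5 inside the vehicle range and replicate 1 at its upper end. Ubd, a ubiquitin-like protein induced by interferon gamma, read 4.59 to 8.74 (median 6.30) in vehicle livers, where the 6 arrays fell into a low and a high set of 3 each. The dosed arrays read 7.57, 7.95, 8.18, 7.59 and 7.83, all inside the vehicle range, so that the 2.62-fold ratio had an interval of 0.888 to 7.76.

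For Ugt2b, a glucuronosyltransferase, the difference rested on 1 vehicle array. Vehicle replicate 3 read 4.34 and the other 5 read 12.33 to 12.72, against 12.75, 12.41, 12.40, 12.41 and 12.76 at 68 mg/kg. The 2.61-fold ratio had an interval of 0.414 to 16.4, and without that array the log2 difference was 0.019. Resp18, an endocrine secretory protein, read 3.69 to 6.32 (median 5.79) against 5.86, 5.72, 6.60, 5.39 and 6.53, at 1.69-fold (0.947 to 3.03). Clca2, of a family of chloride channel regulators, was 1.58-fold (0.786 to 3.16), and its groups overlapped.

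Downward the largest differences included genes of bile acid control and metal binding. Nr0b2, the corepressor SHP that bile acids induce to shut off their own synthesis, read 8.24 to 9.04 (median 8.47) in vehicle livers and 7.69, 6.87, 7.12, 8.39 and 8.66 at 68 mg/kg. Replicates 1, 2 and 3 lay below all vehicle arrays and replicates 4 and 5 among them, at 0.55-fold (0.335 to 0.903). Mt2A, a metallothionein that binds zinc and copper, read 8.12 to 10.41 (median 9.73) against 8.42, 8.20, 8.49, 9.19 and 9.60, at 0.592-fold (0.305 to 1.15). No dosed array left the vehicle range.

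Pcp4l1 read 5.32 to 7.97 (median 7.04) in vehicle livers and 4.38, 6.49, 6.80, 6.35 and 5.92 at 68 mg/kg. Its 0.539-fold ratio (0.31 to 0.935) was drawn down most by replicate 1, the only dosed array below the vehicle range. RT1-T24-3, a class I gene of the rat major histocompatibility complex, read 6.79 to 7.73 (median 7.42) against 7.16, 6.14, 6.73, 7.13 and 6.16, at 0.6-fold (0.377 to 0.954). Its family has near-identical copies, so which gene its probes report is uncertain. Replicates 2 and 5 were its lowest arrays.

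**Figure D3:**
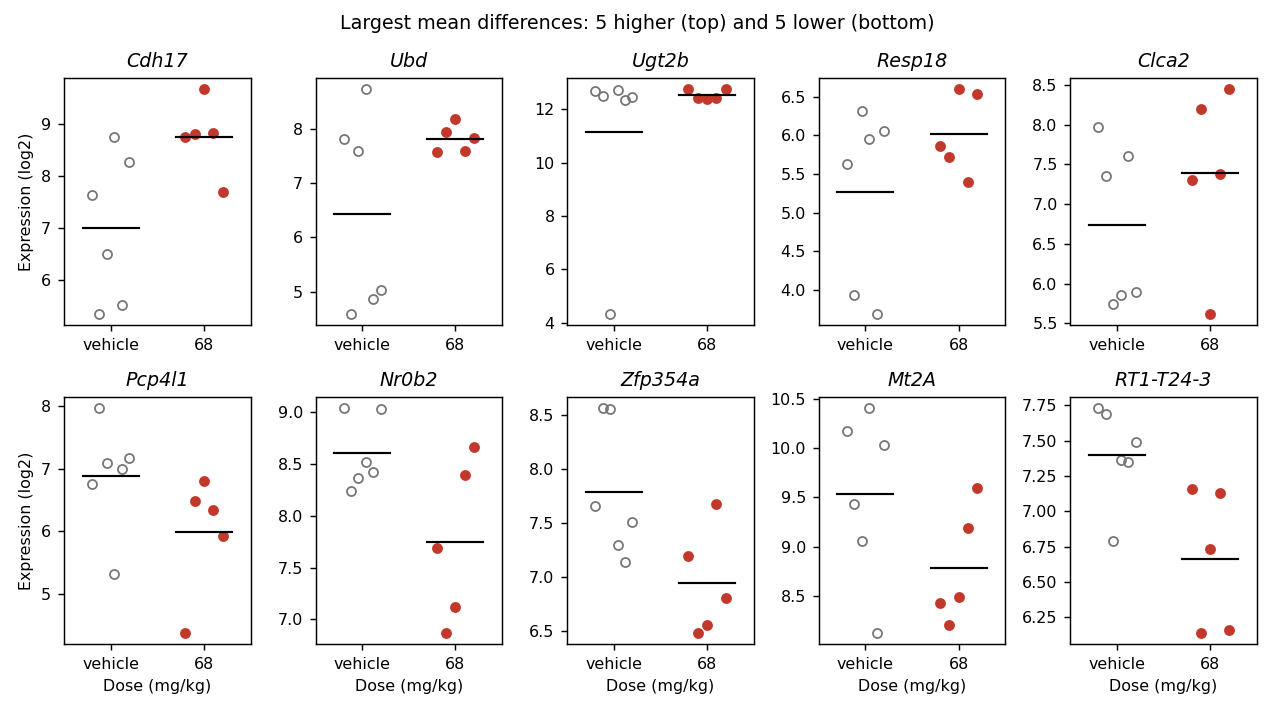
Expression (log2) of the 5 genes with the largest higher and the 5 with the largest lower mean difference, 1 panel per gene with its own y axis. Open points are 6 vehicle arrays, filled points 5 arrays at 68 mg/kg and lines the group means. The single vehicle array at 4.34 sets the Ugt2b difference.

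The 33 gene lists are described by how many members had higher or lower means. They were drawn up with earlier results of these data known, so they are not independent of them. In 32 of them 1 direction held the majority, and leaving out a single array ended or turned that majority in 21. Either that or leaving out dosed replicates 2 and 5 together did so in 25.

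The median differences of the receptor target lists lay close to 0. Among 26 measured CAR and PXR targets of 33 listed, 10 were higher and 16 lower in the mean, with a median log2 difference of -0.0073. The list also counts the genes of the receptors themselves, Nr1i3 (CAR) and Nr1i2 (PXR). Single members ran from 0.787-fold, read for Nr1i3, to 1.38-fold. limma called 0, as of all probe sets (0.00%). It gave 1 member, a lower one, an unadjusted p under 0.05, where 3.59% of all genes had such a p. Cyp2b3, a cytochrome P450 of the 2B family, read 12.55 to 12.70 (median 12.63) in vehicle livers and 12.58, 12.48, 12.60, 12.66 and 12.70 at 68 mg/kg. Its ratio was 0.994-fold with an interval of 0.93 to 1.06, and leaving out vehicle replicate 3 or dosed replicate 2 turned its sign. Cyp3a2, a male-predominant drug-metabolising enzyme, read 13.32 to 13.45 (median 13.36) against 13.33, 13.35, 13.36, 13.30 and 13.33, at 0.972-fold (0.915 to 1.03). Cyp2b1 and Cyp2b2 had no probe set of their own symbol and were not analysed here. The level of Cyp2b3 does not stand for theirs or for the activity of CAR.

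The receptor genes counted in that list had lower means with intervals that included 1, and 1 of them varied between livers. Nr1i3, which encodes CAR, read 7.33 to 8.00 (median 7.47) in vehicle livers and 6.63, 7.30, 8.08, 6.64 and 7.26 at 68 mg/kg. The dosed arrays spread to both sides of the vehicle range, with replicates 1 and 4 lowest, at 0.787-fold (0.592 to 1.05). Nr1i2, which encodes PXR, was 0.923-fold (0.832 to 1.02). Cyp3a23-3a1, induced through PXR, read 12.13 to 12.67 (median 12.33) against 12.50, 12.56, 12.66, 12.28 and 12.03. Its sign turned without vehicle replicate 4 or dosed replicate 3.

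AhR targets were higher for 5 and lower for 5 of 10 measured, and 5 were dim. With dim probe sets left out, 4 were higher and 1 lower. Cyp1a2, the main AhR target of unexposed liver, read 12.43 to 12.66 (median 12.57) against 12.54, 12.46, 12.73, 12.41 and 12.48. Without dosed replicates 2 and 5 its log2 difference turned from below 0 to 0.0023. Cyp1a1, the classical AhR target, was dim, at 4.22 to 4.91 (median 4.53) in vehicle livers and 4.44, 4.67, 4.29, 3.95 and 3.83 at 68 mg/kg. It had the list's only unadjusted limma p under 0.05, in the lower direction, where 3.59% of all genes had such a p. Cyp1b1 was dim as well, at 4.38 to 4.90 against 4.35 to 4.74. Exoc3 was 1.03-fold (0.938 to 1.12), with 1 of 3 other probe sets opposite in sign.

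NRF2 targets were higher for 11 and lower for 12 of 23 measured, with log2 differences from -0.0907 to 0.156. Nqo1, a quinone reductase, read 6.49 to 7.00 (median 6.80) against 6.76, 7.08, 6.99, 6.85 and 6.79, at 1.07-fold (0.802 to 1.44). The groups overlapped almost fully. The subunits of the first enzyme of glutathione synthesis, Gclc and Gclm, were 0.973-fold (0.824 to 1.15) and 1.01-fold (0.886 to 1.15), and both signs turned when 1 array was left out (vehicle replicate 1 or dosed replicate 1 or 3 for Gclc, and vehicle replicate 1 or 6 or dosed replicate 1 or 2 for Gclm). Cbr1, a carbonyl reductase, was 1.09-fold (0.983 to 1.21) and Taldo1, of the pentose phosphate pathway, 1.05-fold (0.984 to 1.11).

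PPAR-alpha targets were lower for 21 of 33 measured, with a median log2 difference of -0.023. Cpt1a, which carries long-chain fatty acids into mitochondria for oxidation, read 10.26 to 10.86 (median 10.50) in vehicle livers and 10.12, 9.95, 10.14, 10.62 and 10.40 at 68 mg/kg. Replicates 1, 2 and 3 lay below the vehicle range, at 0.817-fold (0.692 to 0.964). It was the single member under an unadjusted p of 0.05, where 3.59% of all genes had such a p. The fatty acid hydroxylases Cyp4a1 and Cyp4a3 were 0.916-fold (0.762 to 1.1) and 0.914-fold (0.788 to 1.06). Acadvl, the very long chain acyl-CoA dehydrogenase, was 0.937-fold (0.877 to 1), and Acot1 was dim at 2.15 to 2.89 in vehicle livers and 2.43 to 2.68 at 68 mg/kg.

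Metabolic lists showed no called member either. In the list of cholesterol synthesis and uptake, 16 of 19 measured genes had lower means, with a median log2 difference of -0.071. Leaving out 1 array moved that median from -0.13 (vehicle replicate 4, or dosed replicate 1) to 0.01 (dosed replicate 4, with 10 higher and 9 lower), and without vehicle replicate 3 it was 8 higher and 11 lower. Insig1, which holds back the cholesterol-sensing transcription factor SREBP, read 9.83 to 11.31 (median 10.85) against 10.36, 11.20, 10.42, 10.05 and 9.83, at 0.749-fold (0.5 to 1.12). Stard4, a cholesterol carrier, was 1.15-fold (0.897 to 1.48), with 1 of 2 other probe sets opposite. Fatty acid and triglyceride synthesis genes were higher for 15 of 22, with a median of 0.048. That direction was lost without vehicle replicate 4 (11 higher and 11 lower, median -0.01), without dosed replicate 4 (10 and 12, median -0.01) and without dosed replicates 2 and 5 (9 and 13, median -0.03). Lpin1, a phosphatidate phosphatase, was 0.838-fold (0.665 to 1.06) and Mlxipl, the carbohydrate response factor ChREBP, 1.11-fold (0.957 to 1.29).

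Bile acid genes were lower for 16 of 21, and for 10 without dosed replicate 2, with Nr0b2 the single member under an unadjusted p of 0.05. Abcb4, the phospholipid exporter of the bile canaliculus, read 8.32 to 8.72 (median 8.51) against 8.17, 8.04, 8.28, 8.28 and 8.60, at 0.86-fold (0.737 to 1). Only its replicate 5 lay within the vehicle range. Fasting and gluconeogenesis genes were lower for 14 of 19, with a median of -0.062. Lpin2, a phosphatidate phosphatase, was 0.86-fold (0.722 to 1.02).

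Thyroid hormone responsive genes were higher for 8 of 14 measured. Klf9, a transcription factor induced by thyroid hormone and glucocorticoids, read 9.03 to 9.73 (median 9.23) against 8.59, 9.54, 9.08, 8.89 and 8.63, at 0.781-fold (0.609 to 1). Serpina7, which encodes thyroxine-binding globulin, was 0.751-fold (0.524 to 1.08). Male-predominant genes were higher for 9 of 15 and female-predominant genes for 5 of 11. Cyp3a18 of the male list was 1.05-fold (0.92 to 1.2), a sign that turned without vehicle replicate 1. Cyp3a9 of the female list was 1.38-fold (0.839 to 2.27) and Cyp17a1, a steroid hydroxylase, 0.841-fold (0.606 to 1.17).

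Of 19 measured genes of the circadian clock, 5 had an unadjusted p under 0.05, 1 higher and 4 lower, where 3.59% of all genes had such a p. Tef, a clock output transcription factor, read 7.01 to 7.33 (median 7.14) in vehicle livers and 7.19, 6.82, 6.96, 6.92 and 6.94 at 68 mg/kg. All but replicate 1 lay below the vehicle range, at 0.879-fold (0.797 to 0.971). Usp2, a deubiquitinase with a strong daily rhythm, read 4.92 to 6.17 (median 5.59) against 5.31, 5.38, 5.02, 5.43 and 4.95, at 0.784-fold (0.649 to 0.946). The median of the list was -0.052, and 0.00 without dosed replicate 2. The hour of collection of each rat was not given in the labels.

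Stress and proliferation lists were described in the same way. ER stress genes were higher for 17 of 30, and Manf, a secreted factor induced by unfolded proteins in the ER, read 10.63 to 10.93 (median 10.77) against 10.90, 10.85, 11.04, 11.01 and 10.98. Replicates 3, 4 and 5 lay above the vehicle range, at 1.14-fold (1.02 to 1.27). Psat1, an enzyme of serine synthesis driven by the amino acid response, was lower in the mean at 0.69-fold (0.454 to 1.05). Heat shock genes were higher for 9 of 16, with Hsp90ab1, a cytosolic chaperone, at 0.939-fold (0.87 to 1.01) and its cochaperone Fkbp4 at 0.949-fold (0.869 to 1.04).

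Immediate early genes, which respond within minutes to many stimuli and to handling, were higher for 19 of 26 with a median of 0.079, and for 14 with a median of 0.01 without dosed replicate 3. Dusp1, a phosphatase of stress kinases, read 8.26 to 9.32 (median 8.77) against 8.82, 9.77, 9.71, 8.99 and 8.73, at 1.32-fold (0.921 to 1.89). Replicates 2 and 3 were above the vehicle range. Klf6, a zinc finger transcription factor, was 1.09-fold (0.955 to 1.25). Targets of p53 were higher for 11 of 18, with the death receptor Fas at 1.13-fold (0.941 to 1.36; 1 of 2 other probe sets opposite) and the cyclin Ccng1 at 1.06-fold (0.962 to 1.17).

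Cell cycle genes were lower for 32 of 42 measured, 17 of them dim, with a median of -0.086. Stmn1, a microtubule destabiliser of dividing cells, read 7.80 to 8.49 (median 8.05) in vehicle livers and 7.71, 7.79, 7.94, 8.09 and 7.56 at 68 mg/kg, 0.842-fold (0.709 to 1). Ube2c, which marks mitotic cyclins for degradation, read 5.27 to 6.47 (median 5.68) against 5.25, 5.68, 5.54, 5.61 and 4.99. Replicate 5 lay below all vehicle arrays for 19 of the 42 members, where it did so for 16.3% of all genes. Vehicle replicate 2 had the highest level of the 11 arrays, at 0.40, and without it 20 members were higher and 22 lower, with a median of -0.01. Without dosed replicate 5 they were 19 and 23, with a median of -0.01, and without dosed replicates 2 and 5 together 20 and 22, with a median of -0.02.

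Acute phase genes were lower for 21 of 28 with a median of -0.021, and complement and coagulation genes for 18 of 26 with a median of -0.028. C5, the fifth complement component, read 10.72 to 10.92 (median 10.79) against 10.57, 10.42, 10.78, 10.75 and 10.51, at 0.872-fold (0.785 to 0.968). Replicates 1, 2 and 5 lay below the vehicle range. Mbl2, a mannose-binding lectin, was 1.05-fold (0.991 to 1.11). Of the acute phase genes, Lcn2, an iron-sequestering lipocalin, was 0.769-fold (0.565 to 1.05) and Lbp, which binds bacterial lipopolysaccharide, 0.904-fold (0.801 to 1.02).

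The lists whose medians lay farthest from 0 were those of macrophages, MHC class II and interferon response, and in all 3 the same 2 of the 5 dosed livers were lowest. Of 22 measured Kupffer cell and macrophage markers, 21 were lower in the mean at 68 mg/kg, with a median log2 difference of -0.26, or 0.837-fold. limma called 0 of them, and 1 had an unadjusted p under 0.05, the scavenger receptor Cd163 at 0.769-fold (0.605 to 0.976). The list's level in an array, the mean deviation of its members from their vehicle means, was 0.08, -0.01, -0.36, 0.20, 0.07 and 0.02 in vehicle replicates 1 to 6. At 68 mg/kg it was -0.01, -0.63, 0.13, 0.03 and -0.67 in replicates 1 to 5. In whole tissue, fewer cells of a type and less RNA per cell cannot be told apart.

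Member by member, replicates 2 and 5 carried the difference. Replicate 2 lay below all 6 vehicle arrays for 18 of the 22 genes and replicate 5 for 20, against 1, 0 and 0 for replicates 1, 3 and 4. Over all 14217 genes those shares were 12.7% to 16.3% for the 5 dosed arrays. Replicates 2 and 5 were the lowest 2 of the 11 arrays for 17 of the 22. The genes in the rest of this account of macrophage and interferon genes, beyond Cd163, Cd14, Oasl and Gbp2, were chosen as examples after their values were seen.

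Clec4f, a lectin that marks rodent Kupffer cells, read 9.39 to 10.20 (median 9.94) in vehicle livers and 9.95, 9.10, 10.12, 9.88 and 8.86 at 68 mg/kg. Replicates 2 and 5 lay below the vehicle range and the other 3 within it, for a group ratio of 0.799-fold (0.591 to 1.08). Cd5l, a secreted protein of tissue macrophages, read 8.50 to 9.27 (median 9.16) against 9.05, 7.90, 9.26, 9.09 and 7.98, at 0.759-fold (0.532 to 1.08). C1qa, a chain of the complement starter C1q that macrophages make, read 9.06 to 9.75 (median 9.58) against 9.48, 8.86, 9.63, 9.45 and 8.47, at 0.788-fold (0.598 to 1.04). The same pair of arrays was low for all 3 genes.

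Replicates 2 and 5 were also lowest for Cd163, whereas Cd14 departed from that pattern. Cd163 read 6.11 to 6.78 (median 6.73) in vehicle livers and 6.31, 5.97, 6.33, 6.47 and 5.99 at 68 mg/kg, so that the other 3 dosed arrays also lay below the vehicle median. Cd14, the coreceptor for bacterial lipopolysaccharide, was the 1 member with a higher mean, at 8.987 to 9.698 (median 9.448) against 9.689, 9.920, 9.757, 9.358 and 9.995. Its highest arrays were replicates 2 and 5, at 1.23-fold over the group (0.994 to 1.52).

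The interferon response list shares 0 genes with the macrophage list. Of its 30 measured members, 21 were lower and 9 higher in the mean, with a median of -0.14, and 0 had an unadjusted p under 0.05. Its level was 0.24, 0.03, -0.46, 0.11, 0.04 and 0.04 in vehicle replicates 1 to 6 and 0.16, -0.72, 0.18, 0.35 and -0.58 at 68 mg/kg. Replicate 2 lay below all vehicle arrays for 23 of the 30 genes and replicate 5 for 18. Replicate 4 lay above all of them for 13, replicate 1 for 8 and replicate 3 for 5. Over all genes those shares were 15.6%, 13.4% and 16.9%, so that the count for replicate 3 was near that of all genes. In the level of the list, replicates 2 and 5 lay below and replicate 4 above every vehicle array.

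Many genes of this list carry, near their start, the letters that the interferon-activated complex of STAT and IRF proteins binds. The core of that element was searched as GAAANNGAAA on both strands, overlaps allowed, in RefSeq promoter windows of assembly GRCr8, 300 bases long, from 250 before to 50 after the start. It was found for 16 of 23 members with a window (69.6%), for 3 of 17 macrophage markers (17.6%) and for 1034 of all 27457 windows (3.77%). A match is a description of letters, not a bound site. The first 3 members in list order that were not dim and had a match are shown. Each is given as 250 bases up to the start, 5′ to 3′ on the gene's strand, with the matches in capitals. Whether a match went with low values in the 2 low dosed livers was not tested. Members without a match, such as Mx1 and Irf9, were low in those livers too. Some members with a match, such as Irgm, had higher group means. Oas1a lies on the plus strand at chr12:41330216-41330465, Irf7 on the minus strand at chr1:205800024-205800273 and Rsad2 on the minus strand at chr6:48788121-48788370.
Oas1a: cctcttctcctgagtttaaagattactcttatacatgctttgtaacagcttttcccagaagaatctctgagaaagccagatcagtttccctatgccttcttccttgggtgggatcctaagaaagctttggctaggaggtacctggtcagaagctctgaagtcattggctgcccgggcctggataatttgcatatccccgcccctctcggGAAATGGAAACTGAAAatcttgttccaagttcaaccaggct
Irf7: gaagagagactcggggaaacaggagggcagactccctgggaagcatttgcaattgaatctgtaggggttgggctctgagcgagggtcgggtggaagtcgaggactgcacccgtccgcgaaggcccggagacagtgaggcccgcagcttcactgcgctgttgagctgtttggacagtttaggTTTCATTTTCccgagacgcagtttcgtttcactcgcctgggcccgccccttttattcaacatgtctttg
Rsad2: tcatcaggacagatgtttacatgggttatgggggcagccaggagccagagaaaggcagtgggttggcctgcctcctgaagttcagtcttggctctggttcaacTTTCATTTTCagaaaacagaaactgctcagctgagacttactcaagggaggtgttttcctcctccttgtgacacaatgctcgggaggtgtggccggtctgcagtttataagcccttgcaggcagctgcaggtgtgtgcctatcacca

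Oas1a, whose 2 overlapping matches begin 41 bases before the start, makes the signal that activates the antiviral RNase L. It read 4.22 to 5.75 (median 5.41) in vehicle livers and 5.53, 4.26, 5.56, 6.45 and 4.16 at 68 mg/kg. Replicate 4 was the highest and replicate 5 the lowest of the 11 arrays, and the group ratio was 0.949-fold (0.542 to 1.66). Irf7, the master transcription factor of the type I interferon response, with its match 69 bases before the start, read 6.57 to 7.59 (median 7.10) against 7.38, 5.93, 7.31, 7.85 and 5.86, at 0.846-fold (0.508 to 1.41). Rsad2, the antiviral enzyme viperin, with its match 147 bases before the start, read 5.86 to 6.81 (median 6.56) against 6.46, 6.03, 6.33, 7.12 and 5.57, at 0.882-fold (0.674 to 1.16).

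Mx2 and Rtp4, both interferon-induced antiviral genes, had the same shape. Mx2 read 4.50 to 6.24 (median 6.08) in vehicle livers and 6.21, 4.17, 6.10, 6.61 and 4.16 at 68 mg/kg. Rtp4 read 6.93 to 8.51 (median 8.25) against 8.43, 6.26, 8.47, 8.81 and 6.83. In both, replicate 4 was above and replicates 2 and 5 below every vehicle array. The list members with the smallest p, Oasl and Gbp2, were 0.891-fold (0.741 to 1.07) and 0.779-fold (0.513 to 1.18).

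**Figure D4:**
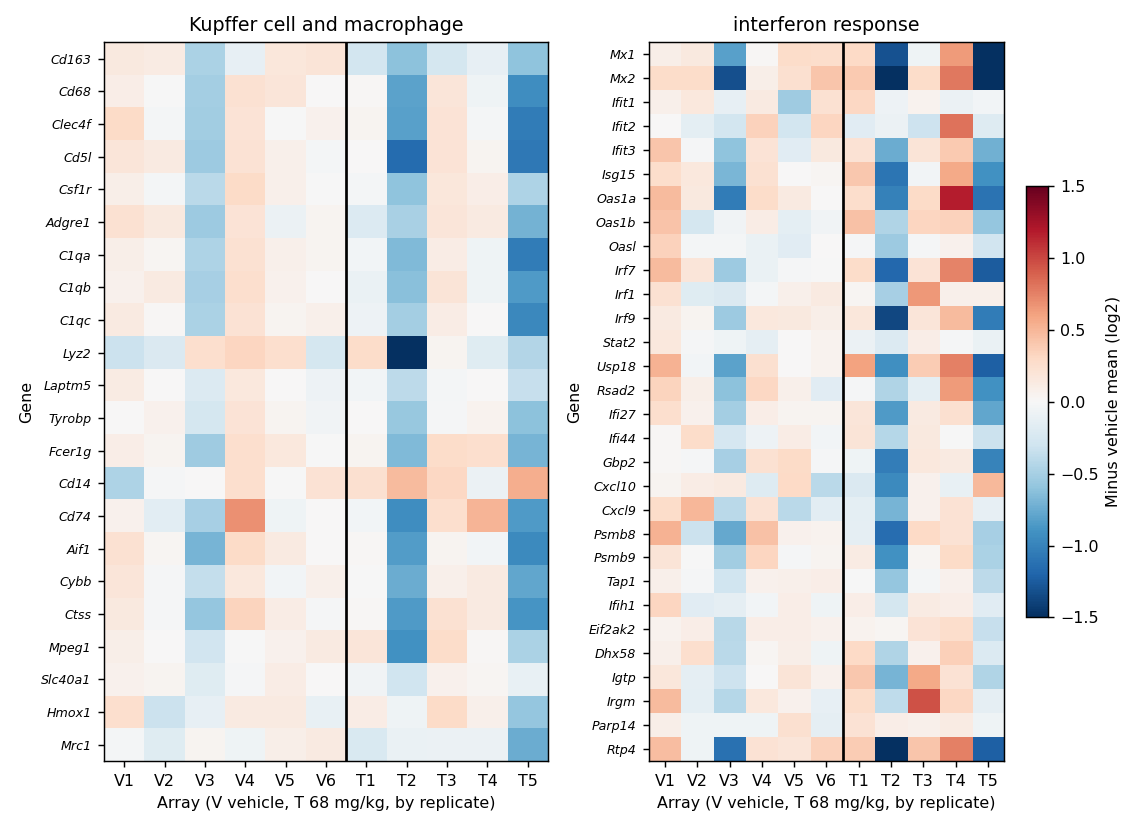
Each row is a measured member of the Kupffer cell and macrophage list (left) or the interferon response list (right) and each column an array, V1 to V6 for vehicle and T1 to T5 for 68 mg/kg. Colour gives log2 expression minus the gene's vehicle mean, with differences beyond 1.5 drawn at the end colours. T2 and T5 are blue in most rows of both lists, and V3 more faintly so.

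A vehicle liver shared the pattern in part. Vehicle replicate 3 was the lowest vehicle array for 18 of the 22 macrophage genes, for 22 of the 30 interferon genes and for 6 of 9 MHC class II genes. Without it, 21 of 22 macrophage genes were lower at 68 mg/kg with a median of -0.33, and 26 of 30 interferon genes with a median of -0.23. Without dosed replicates 2 and 5 together, 19 of 22 macrophage genes were higher with a median of 0.05, and 28 of 30 interferon genes were higher with a median of 0.18. Those 2 arrays were picked because they were lowest in these lists, so that choice by itself raises the medians. Vehicle replicate 3, also low, was kept in, so these counts do not show higher levels at 68 mg/kg. Without replicate 2 alone the medians were -0.14 and 0.01, and without replicate 5 alone -0.13 and -0.01.

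RNA quality was read from probes at both ends of control transcripts. The Actb signal of 3' minus 5' probes was 1.14 and 1.10 (log2) in replicates 2 and 5, where dosed arrays ran from 1.08 to 1.15 and vehicle arrays from 1.04 to 1.23. The same value for GAPDH was 0.03 in both, within the vehicle range of -0.08 to 0.07. Their median correlation with the rest of the dose group was 0.9937 and 0.994, the lowest 2 of the 5. The part of that lower correlation in the pattern was not tested.

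Other immune cell lists followed the same arrays to different degrees. MHC class II genes, which share 2 members with the macrophage list, were lower for 8 of 9, with a median of -0.21. Without dosed replicates 2 and 5 together, 5 of the 9 were higher, with a median of 0.13. Leaving out 1 array gave -0.10 without vehicle replicate 4, -0.12 without dosed replicate 2, -0.11 without dosed replicate 5 and -0.36 without dosed replicate 4. Their level was -0.14, -0.60, 0.02, 0.19 and -0.63 at 68 mg/kg and ran from -0.46 to 0.71 in vehicle livers, so that vehicle replicate 4 stood as far above the mean as the 2 low dosed livers stood below it. RT1-DMa, a peptide-loading chaperone, was 0.853-fold (0.675 to 1.08) and Ciita, the class II transactivator, 0.925-fold (0.833 to 1.03).

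Lymphocyte and NK cell genes, 16 of 24 dim, were lower for 16 with a median of -0.08, which was 0.02 without dosed replicate 2 and 0.08 without replicates 2 and 5. Ptprc, the CD45 antigen of all white blood cells, read 6.00 to 6.46 (median 6.24) against 6.15, 5.06, 6.14, 6.53 and 5.64, at 0.795-fold (0.588 to 1.07). Replicates 2 and 5 again lay below the vehicle range. Lck, a kinase of T cells, read within or near it in all 5, at 5.37 to 5.62 (median 5.49) against 5.40, 5.39, 5.35, 5.52 and 5.43. Neutrophil genes were mostly dim, with 7 of 9 below 4.71. Fcgr3a, an IgG receptor also of macrophages and NK cells, was 0.775-fold (0.528 to 1.14) and S100a9, of the calprotectin complex, 1.01-fold (0.78 to 1.31), a sign that turned with any of 5 single arrays left out.

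Endothelial genes were lower for 15 of 21, with a median of -0.083, which was -0.03 without dosed replicate 5, and for 12 of 21 with a median of -0.02 without replicates 2 and 5. Stab2, a scavenger receptor of the sinusoidal endothelium, read 8.15 to 8.47 (median 8.31) in vehicle livers and 8.07, 8.30, 8.15, 8.13 and 7.87 at 68 mg/kg, 0.865-fold (0.753 to 0.994). Kdr, a receptor of vascular endothelial growth factor, read 9.20 to 9.53 (median 9.34) against 9.18, 9.10, 9.36, 9.16 and 9.12, at 0.896-fold (0.796 to 1.01). All but 1 dosed array lay below the vehicle range of Kdr.

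Hepatocyte genes stayed near their vehicle means, with 7 of 18 higher and a median of -0.0069, and the list's level in replicates 2 and 5 was -0.017 and -0.023. Tat, an amino acid enzyme induced by glucocorticoids, was 0.785-fold (0.585 to 1.05) and Apob, the structural protein of very low density lipoprotein, 0.965-fold (0.9 to 1.04), with its other probe set opposite. Higher means were read for 6 of 15 pericentral and 6 of 19 periportal genes. Znrf3, a Wnt feedback inhibitor of pericentral cells, read 5.95 to 6.34 (median 6.14) against 6.29, 6.18, 6.42, 6.70 and 6.54, at 1.23-fold (1.04 to 1.46). Tbx3, a Wnt target of the same zone, was 0.741-fold (0.549 to 1) and periportal Aldh1b1, an aldehyde dehydrogenase, 1.25-fold (0.924 to 1.69).

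Stellate cell genes were higher for 13 of 23 and cholangiocyte genes, 6 of them dim, for 6 of 11. Of those 11, an unadjusted limma p under 0.05 fell on 1 higher member, Cdh17, and on 2 lower ones. Over all genes 3.59% had such a p. Pdgfrb, a growth factor receptor of stellate cells, was 1.12-fold (0.924 to 1.35) with both other probe sets opposite, and Hand2, a stellate cell transcription factor, 0.945-fold (0.853 to 1.05) with its other probe set opposite. Slc4a2, an anion exchanger, was 0.899-fold (0.81 to 0.997). Erythroid and platelet genes were lower for 6 of 9. Pf4, a platelet chemokine, read 5.72 to 5.99 (median 5.78) against 5.51, 5.79, 5.04, 5.29 and 5.98, at 0.816-fold (0.684 to 0.973), and Ahsp, a haemoglobin chaperone, was 0.95-fold (0.816 to 1.11). The 2 pancreas genes that were not dim, Cpb1 and Cela1, were 0.912-fold (0.738 to 1.13) and 0.998-fold (0.797 to 1.25), and the sign of the latter turned with several single arrays left out.

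**Figure D5:**
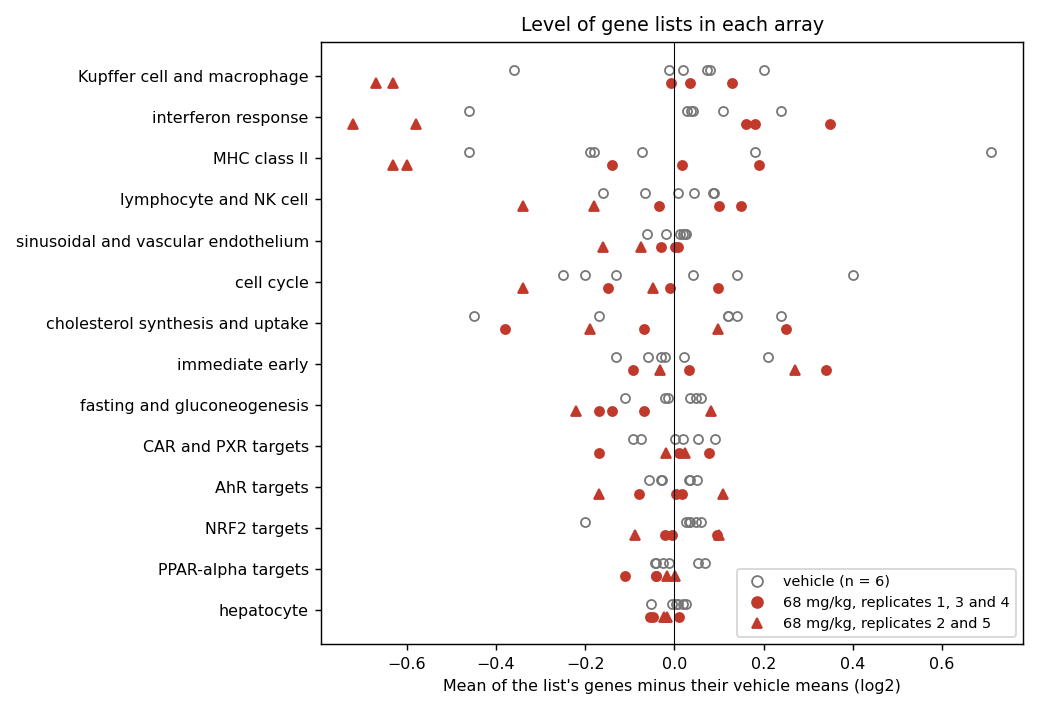
Level of 14 gene lists in each array, as the mean log2 deviation of the list's members from their vehicle means (x axis). Open points are 6 vehicle arrays, filled circles dosed replicates 1, 3 and 4, and triangles dosed replicates 2 and 5, which lie at -0.58 to -0.72 for interferon and macrophage genes and near 0 for hepatocyte genes.

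The next higher dose, 680 mg/kg (6 arrays), gave the comparison that does not use the vehicle arrays. limma called 0 of 31042 probe sets (0.00%) between 680 and 68 mg/kg, with a smallest adjusted p of 0.999 and 1332 (4.29%) at an unadjusted p under 0.05. Against vehicle, 680 mg/kg also had 0 called (0.00%). The ratios to vehicle that follow share the 6 vehicle arrays and are given side by side for that reason only.

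Tmem177 was 1.17-fold its vehicle mean at 68 mg/kg and 1.04-fold at 680 mg/kg. Crls1 was 1.27-fold and 1.2-fold, and Slc44a4 1.36-fold and 1.18-fold. Arsb was 0.795-fold and 1.03-fold, and its direct ratio of 680 to 68 mg/kg was 1.3-fold (1.14 to 1.48). Zfp354a was 0.557-fold and 0.466-fold, Nr0b2 0.55-fold and 0.629-fold, and Cdh17 3.35-fold and 2.93-fold. Pcp4l1 was 0.539-fold and 1.16-fold, with a direct ratio of 2.16-fold (1.25 to 3.75). Neither direct ratio passed limma's test across all probe sets. These genes were chosen by their values at 68 mg/kg, and the direct ratio uses the same arrays. Such a choice alone can move the ratio back toward vehicle, so the direct intervals do not show a difference between the doses. Of the 12 genes of smallest p with higher means, 11 were lower at 680 than at 68 mg/kg. Of the 12 with lower means, 11 were higher at 680 mg/kg.

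For the lists, the median difference from vehicle was -0.26 at 68 mg/kg and -0.087 at 680 mg/kg for macrophage genes, with 21 and 18 of 22 lower. For interferon genes it was -0.14 and -0.071, with 21 and 23 of 30 lower, and for MHC class II genes -0.21 and -0.23, with 8 and 9 of 9 lower. For CAR and PXR targets it was -0.0073 and 0.01. Set directly against 68 mg/kg, the median at 680 mg/kg was 0.16 higher for macrophage genes, 0.015 higher for interferon genes and 0.0061 higher for CAR and PXR targets.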

How the data were processed

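Per the labels' protocols, liver RNA was amplified and labelled for 1 biotin array per sample. The authors deposited log2 RMA values per probe set. The submitters' processing notes name RMA and affy without versions, and RMA's convention gives the base of 2. Values ran from 1.45 to 14.44, with array medians of 4.71 to 4.79. RMA's quantile step would reduce a shift of most transcripts in 1 direction.

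The 57 control probe sets were left out. Of 31042 probe sets, 20826 had 1 gene symbol, 436 several and 9780 none, and 20758 matched RefSeq identifiers of GRCr8, with 0 symbols changed. The brightest probe set stood for each of 14217 genes, of which 9590 reached 4.71 in both group means.

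A limma 3.58.1 model (R 4.3.3) was fitted to all 35 arrays with a coefficient for each group and no filter, contrasting 68 mg/kg with vehicle and 680 with 68 mg/kg, with Benjamini-Hochberg adjustment at 0.05. The package R/maanova, named in the series design with a 5% false discovery rate, was not used here. The p-values measure the spread between samples. The fit was checked on simulated data.

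The 33 lists (657 of 759 entries measured) and the members were chosen with earlier results of these data known. Named genes were the 12 of smallest p and the 5 of largest difference in each direction, the 2 of smallest p per list and the first 3 measured of each receptor list, plus 8 macrophage and interferon genes chosen after their values were seen. The alternatives left out dim probe sets or used renormalisation, centring, a replicate block, other spread models, array weights, 1 probe set per gene, only these 2 groups, and arrays left out.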

Additional observations from a re-analysis of the deposited data

Results flagged for a closer look

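In 288 groups of values (111 named genes and 33 list levels, in vehicle and at 68 mg/kg) 18 had an array standing apart from the others of its group, by the gap between it and the next array relative to the range. Chance flags about 1 group in 20.

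Macrophage and interferon values stood apart in vehicle replicate 3, the vehicle liver that was also low in both lists. It read 4.50 for Mx2 (others 5.91 to 6.24), 4.22 for Oas1a (5.27 to 5.75), 6.93 for Rtp4 (7.98 to 8.51), 8.50 for Cd5l (9.02 to 9.27) and 9.06 for C1qa (9.55 to 9.75). The interferon list as a whole stood at -0.46 there and between 0.03 and 0.24 in the other vehicle arrays. These genes were chosen after their values were seen. The same array read 4.34 for Ugt2b, where the others read 12.33 to 12.72.

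Other vehicle arrays stood apart in single genes. Replicate 1 read 4.29 for Slc44a4 (others 4.76 to 4.97) and 5.25 for Oasl (4.74 to 4.92). Replicate 2 read 8.00 for Nr1i3, which encodes CAR (7.33 to 7.54). Replicate 4 read 10.56 for Serpina7, the thyroxine-binding globulin gene (9.51 to 9.74). Replicate 5 read 5.90 for Lcn2 (4.89 to 5.20), and replicate 6 read 7.50 for Stard4 (8.03 to 8.19). The NRF2 list stood at -0.20 in vehicle replicate 6 (others 0.02 to 0.06) and the bile acid list at -0.22 in vehicle replicate 4 (-0.01 to 0.11).

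At 68 mg/kg, replicate 5 read 5.23 for Lcn2 (others 4.67 to 4.82) and replicate 1 read 9.31 for Fkbp4 (9.22 to 9.24). The p53 list stood at 0.21 in replicate 2 (others -0.07 to -0.02), 1 of the 2 livers low in macrophage and interferon genes.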

How the results depend on the processing

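Under every alternative run, limma called 0 probe sets at 68 mg/kg, with smallest adjusted p values from 0.0757 (without vehicle replicate 1) to 1, and 0 between 680 and 68 mg/kg (0.433 to 1). The count at an unadjusted p under 0.05 was 540 without dim probe sets and 530 with 1 probe set per gene. Without dim probe sets, 56 probe sets had groups that did not overlap, and the list medians were -0.18 for neutrophil, -0.07 for exocrine pancreas and -0.25 for kidney and adrenal genes. Without dosed replicates 2 and 5 together, medians were 0.05 for macrophage, -0.02 for endothelial and 0.08 for lymphocyte genes. Leaving out 1 array, the circadian median ran from -0.08 to 0.00. Of 726 list values, these 7 moved beyond the spread between arrays, a bound that includes dosed replicates 2 and 5. Values inside that bound could still turn in sign. Without dosed replicates 2 and 5 the interferon median went from -0.14 to 0.18 and the MHC class II median from -0.21 to 0.13. Those arrays were picked for their low values in such lists, which by itself raises the medians.

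Of 1107 gene values with alternatives other than a single array left out, 16 turned in sign. Without dosed replicates 2 and 5 the log2 differences were 0.0023 for Cyp1a2, 0.0056 for Oasl, 0.078 for Gbp2, 0.039 for Ptprc, 0.07 for Fcgr3a, 0.0096 for Cela1, 0.077 for Clec4f, 0.00029 for C1qa, 0.077 for Cd5l, 0.52 for Rtp4, 0.41 for Irf7, 0.15 for Rsad2, 0.49 for Mx2 and 0.58 for Oas1a. Centring each array on its median gave 0.0018 for Cela1, and array weights gave 0.057 for Oas1a. With single arrays left out, 28 of 1221 values turned, in 11 genes. Their ranges were -0.033 to 0.022 for Cyp2b3, -0.023 to 0.13 for Cyp3a23-3a1, -0.13 to 0.058 for Gclc, -0.034 to 0.056 for Gclm, -0.019 to 0.15 for Cyp3a18, -0.083 to 0.13 for S100a9, -0.1 to 0.15 for Cela1, -0.56 to 0.083 for Rtp4, -0.49 to 0.012 for Irf7, -0.38 to 0.0019 for Rsad2 and -0.39 to 0.18 for Oas1a. Signal over background limits dim genes.

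Samples that share a replicate number correlated at -0.07 to -0.01 in their deviations from the group means, and other pairs at -0.12 to 0.18. No pairing by number was seen in these values, and whether the numbers mark a shared batch was not tested by them. With the replicate block limma called 0, with 1285 at an unadjusted p under 0.05 and a smallest adjusted p of 0.619.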

Other observations

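Some genes varied far more between rats of 1 group than between groups. The median gene had an SD of 0.12 in vehicle livers and 0.124 at 68 mg/kg, on the log2 scale. An SD above 1 was read for 14 genes in vehicle livers and for 18 at 68 mg/kg, dim genes included. Several of these are known targets of growth hormone signalling, which reaches the male rat liver in pulses. Whether growth hormone bears on their spread here was not tested. The repressor Bcl6 averaged 8.07 ± 1.84 (SD, n = 6) in vehicle livers and 8.61 ± 1.90 (n = 5) at 68 mg/kg. The feedback inhibitor Cish averaged 4.68 ± 0.58 and 5.37 ± 1.47, Socs2 7.05 ± 0.86 and 7.25 ± 1.02, and the transcription factor Onecut1 6.95 ± 0.93 and 7.54 ± 1.60.

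The immediate early transcription factor Egr1 averaged 8.17 ± 1.25 in vehicle livers and 8.64 ± 1.05 at 68 mg/kg. Fgf21, a hormone of fasting, averaged 6.53 ± 0.72 and 6.28 ± 1.16, and the clock repressor Bhlhe40 6.08 ± 0.57 and 5.75 ± 1.33. Scd, which desaturates fatty acids, averaged 10.25 ± 0.22 and 10.37 ± 1.02, and Ephx2, a soluble epoxide hydrolase, 5.93 ± 0.11 and 6.55 ± 1.27. Whether the spread differed between the groups was not tested. These genes were chosen after their values were seen.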
